A study of Aspergillus nidulans with 8 samples.

Results

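The genes described here are the 123 of 10550 Aspergillus nidulans genes on a custom Agilent array, 1 probe a gene, whose transcripts were more abundant on the array labelled reference strain than on the array labelled atfA deletion in every one of 4 conditions. They were chosen by that difference: the level had to be at least 1 higher on the log2 scale (2-fold) in each condition, and the probe well above background on all 4 arrays labelled reference. A level is the log2 processed signal of a probe, averaged over its 4 spots, relative to the 75th percentile of its array, so that 0 stands for the 75th percentile. The differences between the strain labels are therefore descriptions and carry no test. The places of the genes in the genome were not used in the choice. The mean responses to the treatments over both strain labels did not enter the rule, except that a signal was required on every array labelled reference. They are still not independent of the choice where responses spread wider labelled reference than labelled deletion. Responses under a single label are made of the levels by which the genes were chosen.

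A. nidulans is a filamentous fungus, and the cultures were submerged mycelia in Barratt's minimal broth at 37 °C. The labels give the reference strain, THS30.3, as pyrG89, AfupyrG+; pyroA+; veA+. They give the deletion mutant, TNJ 92.4, as pyrG89, AfupyrG+; pyroA4; DatfA::pyroA; veA+, so that the pyrG alleles and veA+ were shared and the pyroA alleles were not. Cultures of 16 h were left untreated for a further 0.5 h or received amphotericin B (AmB) at 2 mM, CdCl2 at 0.2 mM or Congo Red at 10 mM. AmB is an antifungal polyene that acts on membrane ergosterol, cadmium is a toxic metal, and Congo Red perturbs the cell wall by binding its polysaccharides. The doses are those of the labels, whose units were not checked against another source. There was 1 array for every strain label and condition, 8 in all, and each was hybridised with total RNA pooled from 3 cultures, so no group had a replicate.

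AtfA is a transcription factor of the bZIP family that acts with the stress-activated kinase SakA in aspergilli and is known for its part in stress tolerance and in the conidia, the asexual spores. Conidia are coated by hydrophobins, small secreted proteins that make the spore surface water-repellent, and they carry pigments. In submerged culture the fungus grows mainly as hyphae, and conidiation is a programme of air-exposed colonies that begins with the regulator brlA.

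The check of the deleted gene went against the labels. The atfA probe (AN2911) stayed at background on the 4 arrays labelled reference, at levels of -9.06 untreated, -7.19 under AmB, -8.58 under CdCl2 and -9.09 under Congo Red. It was bright on every array labelled deletion, at 2.39, 3.64, 2.37 and 3.03 in the same order. The authors' value table carries the opposite assignment: each of its columns correlated best with a scanner file of the other strain label (r = 0.971 to 0.990, against 0.910 to 0.952 with the file of its own label). Its untreated and CdCl2 columns of the reference strain also matched the CdCl2 and untreated files labelled deletion, in exchanged order. All directions below follow the labels of the scanner files, and "labelled reference" names arrays without atfA signal above background. The pyroA gene (AN7725), whose product makes vitamin B6 and whose alleles differ between the strains, is itself among the 123 genes. Its levels were 3.21, 4.88, 3.67 and 3.12 on the arrays labelled reference (untreated, AmB, CdCl2, Congo Red) and 2.06, 1.68, 1.86 and 1.75 on those labelled deletion. The transcript of pyrG (AN6157), for which both strains have the same alleles, was at 2.97, 1.32, 3.07 and 2.78 against 2.50, 2.11, 2.73 and 2.63.

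The 8 arrays detected 7691 to 8482 probes each, and spots of the same probe differed with a median log2 SD of 0.075 to 0.099, a spread of the slide and not of the cultures. The AmB arrays were dim, with a 75th percentile of the processed signal of 335.7 and 261.8 against 1062 to 1876 on the others. The lowest level well above background was accordingly -5.67 and -5.58 on the AmB arrays and -7.95 to -7.32 elsewhere. The untreated, AmB and CdCl2 arrays of a strain label shared a slide, and the Congo Red array lay on the slide of the other label.

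Most of the 123 genes were weakly expressed on the arrays labelled deletion and moderately expressed on those labelled reference. Their median level was -2.12 untreated, -0.44 under AmB, -1.98 under CdCl2 and -0.99 under Congo Red on the arrays labelled reference. On those labelled deletion it was -4.32, -3.79, -4.85 and -4.42. Above the 75th percentile of their array lay 34, 51, 28 and 40 of the genes under the reference label and 6, 10, 5 and 7 under the deletion label. In all, 70 genes were well above background on all 8 arrays, 40 on 1 to 3 of the arrays labelled deletion and 13 on none of these. For 20 of the 40 the only array below background was the dim AmB array. In such bulk RNA, fewer cells of a type and less RNA per cell cannot be told apart.

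**Figure D1:**
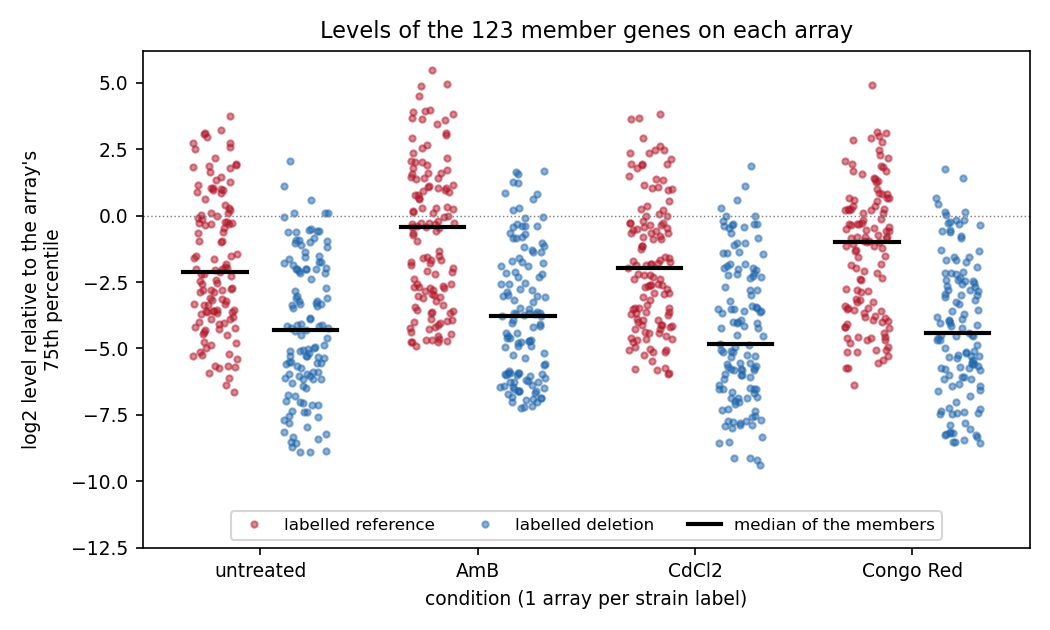
Levels of the 123 genes on each of the 8 arrays, as log2 signal relative to the 75th percentile of the array (dotted line at 0). Each point is 1 gene and each bar the median of the genes on that array; the medians lay between -2.12 and -0.44 on the arrays labelled reference and between -4.85 and -3.79 on those labelled deletion.

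All 123 genes fulfil the rule by construction, against 1.67% of the 7366 probes well above background on the 4 arrays labelled reference. In single conditions a difference of at least 1 was met by 4.72% of these probes untreated, 17.1% under AmB, 8.51% under CdCl2 and 5.04% under Congo Red. The median difference of the chosen genes was 2.13 untreated, 2.55 under AmB, 2.28 under CdCl2 and 2.32 under Congo Red. The difference was at least 2 (4-fold) in every condition for 36 genes and at least 3 for 14, while its smallest value was under 1.5 for 65. It was largest under AmB for 46 genes, under Congo Red for 41, untreated for 20 and under CdCl2 for 16. The size of the difference was steady in some genes and not in others: it spanned at most 1 over the conditions in 27 genes and at least 3 in 28. Where a signal labelled deletion below background was replaced by the detection floor of its array, 112 of the 123 still differed by at least 1 everywhere. In the value table with the strain labels turned, 121 of the 123 lay above 0 in all 4 conditions and 58 met the rule, and with normexp background correction 64 of the 123 met it. Just inside the threshold stood AN2486, AN10452 and AN9206, with smallest differences of 1.008, 1.01 and 1.015. Just outside it stood AN7860, AN4638 and AN4374, at 0.9975, 0.9965 and 0.9951.

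Hydrophobin genes among the 123 were AN6401, rodA and AN1837, of which AN6401 had the widest measured difference in every condition. AN6401, listed as the hydrophobin gene dewC, stood at 3.76 untreated, 2.55 under AmB, 3.80 under CdCl2 and 4.91 under Congo Red on the arrays labelled reference. On those labelled deletion it stood at -0.63, -3.71, -1.44 and -2.82. The lowest array labelled reference was thus above the highest labelled deletion, and the gene was 21.0-fold, 76.6-fold, 38.0-fold and 212-fold higher in the 4 conditions. Such a lack of overlap, here and below, is favoured by the choice of the genes. Its share among the 123 genes and among all probes was not counted. The gene rodA (AN8803), which encodes the hydrophobin of the rodlet layer of the conidium, was at 1.03, 1.70, 1.14 and 1.66 against -0.61, -1.90, -2.15 and -2.12. Its difference was 1.65 untreated and between 3.29 and 3.79 in the treatments, and its level labelled deletion was highest untreated. AN1837, listed as the hydrophobin gene dewB, was at -3.35, -1.67, -4.19 and -2.40 against -4.51, -6.24, -6.47 and -6.15. Its AmB level labelled deletion was not well above background, and the fold there was at least 15.0.

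The other gene of the spore coat and its pigments among the 123 was ivoA (AN10576), which encodes an enzyme of the conidiophore pigment. Its levels were low on every array, at -3.58, -3.68, -4.13 and -3.78 against -4.99, -5.84, -5.69 and -6.00, the AmB value labelled deletion being below background. Of a list of 12 genes of the conidial surface and pigments, 4 belonged to the 123, as did 1.67% of all probes well above background labelled reference. By measured signal, some of it below background, 7 were higher on the array labelled reference in all 4 conditions and none was lower in all 4. The 7 include the 4 that were chosen for this. Of 7006 probes well above background labelled reference and not within 2 AN numbers of the 123 genes, 15.6% were higher in all 4. The gene of the phenol oxidase of the conidiophore pigment, ivoB (AN0231), differed by 3.66 untreated, 4.70 under CdCl2 and 5.54 under Congo Red. It missed the rule under AmB at 0.98. AN0940, listed as dewD, missed it untreated at 0.95, and in the treatments it was not well above background labelled deletion. Of the other hydrophobin genes, dewA (AN8006) was well above background on 4 of the 8 arrays, without a condition in which both arrays were. AN7539, listed as dewE, differed by 0.77, -0.52, 0.66 and 0.95. The spore pigment genes wA (AN8209, pksP in RefSeq) and yA (AN6635) were lower on the array labelled reference in at least 1 condition each, with differences between -0.70 and 0.54 and between -1.95 and 0.23. The last 2 genes of the list, conJ (AN5015) and conF (AN8194), were mixed in sign, between -0.92 and 0.90 and between -0.62 and 0.59.

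No regulator of conidiation was among the 123. Of 13 on the list, brlA (AN0973) alone was higher labelled reference in all 4 conditions, by 0.71 untreated, 1.78 under AmB, 1.15 under CdCl2 and 2.47 under Congo Red, and 2 were lower in all 4. Its AmB level labelled deletion was not well above background, so that the difference there is not exact. The brlA signal was low throughout, at -4.90 to -3.65 labelled reference and -6.68 to -4.80 labelled deletion. The regulator abaA (AN0422) stood at -6.57 to -4.95 and -6.11 to -2.48, and the wetA probe (AN1937) was well above background on none of the arrays labelled reference. The median of the mean difference was 1.36 for the surface and pigment list and -0.18 for the regulators. The first list holds 4 genes chosen by this difference, and both hold probes below background. The lists were also chosen with earlier results of these data known, so the contrast between them is a description only. Lists of 5 genes of sexual development, 5 of autolysis and 5 of stress defence held none of the 123 genes. In the stress list the catalase gene catB (AN9339) was lower labelled reference in all 4 conditions, by -2.83, -1.86, -2.29 and -1.10. In that list 0 genes were higher in all 4.

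**Figure D2:**
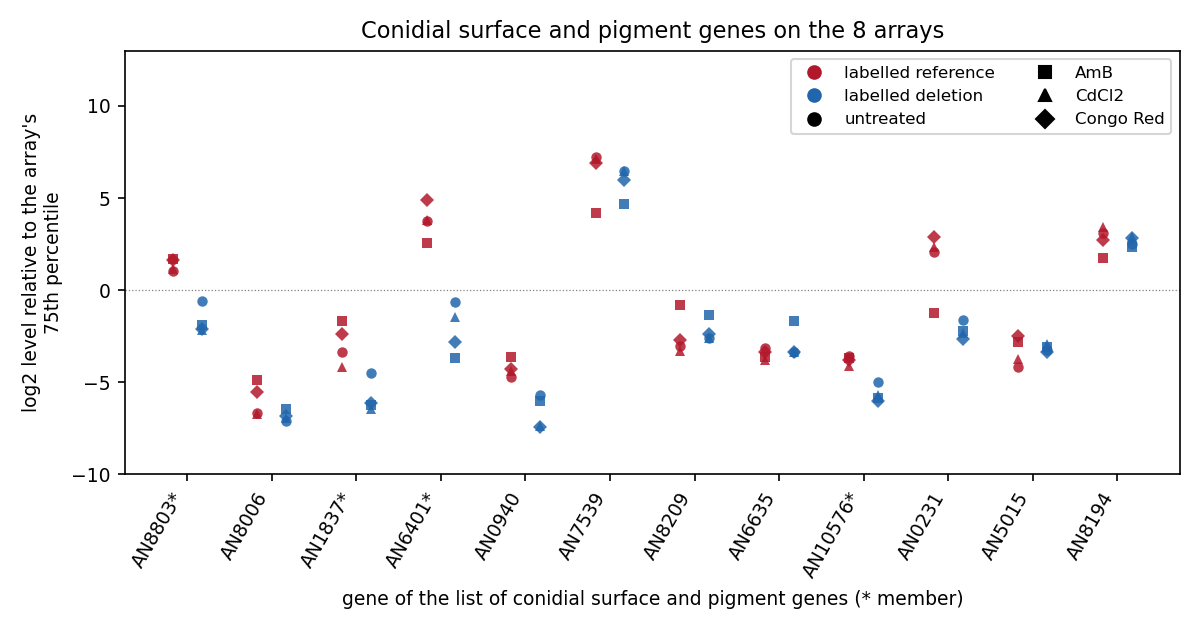
Levels of the 12 genes of conidial surface and pigment on the 8 arrays, as log2 signal relative to the 75th percentile of the array. Colours give the strain label and symbols the condition. For the 4 starred genes, which belong to the 123, every array labelled reference lies above every array labelled deletion, which their choice favours.

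Of 4 genes of alpha-1,3-glucan, a cell wall polysaccharide, only ags2 (AN5885), a glucan synthase gene, belonged to the 123. Its levels were 0.21 untreated, -4.67 under AmB, 0.35 under CdCl2 and 0.68 under Congo Red on the arrays labelled reference, against -3.32, -5.96, -3.46 and -4.49. The AmB array labelled reference lay below 3 of the 4 arrays labelled deletion, so that the groups overlapped across conditions, and the AmB level labelled deletion was below background. The other synthase gene, ags1 (AN3307), differed the opposite way, by -0.07, -1.39, -0.49 and -0.84. So did AN3308, by -1.255, -1.98, -1.93 and -1.28, and AN3309 was mixed in sign. The gene agdC (AN0941), of the alpha-glucosidase family, was at -1.59, -1.56, -1.98 and -1.06 against -3.12, -2.81, -3.42 and -3.83. Its AmB and untreated levels labelled reference were almost equal, and no arrays of the groups overlapped.

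The remaining genes with a symbol belong to transport, signalling and mitochondria. The proline permease gene prnB (AN1732) was at 1.34, 1.40, 1.07 and -0.32 labelled reference and -1.11, -2.12, -0.46 and -1.56 labelled deletion. Its difference was widest under AmB, at 3.52, and narrowest under Congo Red, at 1.25. The gene gprD (AN3387), for a G protein-coupled receptor, was at -1.64, 0.30, -0.87 and -1.22 against -3.37, -1.19, -3.53 and -2.96, so its AmB level labelled deletion lay above the untreated level labelled reference. The gene yme2 (AN10634), whose yeast namesake encodes a mitochondrial inner membrane protein, was at -0.64, 1.41, -0.21 and -0.57 against -2.02, -0.82, -1.84 and -1.69. In each condition the differences of these 3 genes were smaller than that of AN6401.

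By the smallest measured difference over the conditions, the first 10 genes were AN11864, AN6401, AN1756, AN11899, AN10371, AN8928, AN8308, AN12170, AN4795 and AN3858. Their order is not established, since only AN6401, AN11899, AN10371 and AN4795 were well above background on all 8 arrays. Apart from AN6401, none of the 10 has a symbol in RefSeq or a name on the lists used here, and no role is given for them. AN11864 stood at -0.23, -2.09, -0.76 and -0.85 labelled reference and -5.97, -6.59, -6.51 and -5.27 labelled deletion, the AmB value of which was below background (at least 11.2-fold). AN11899 was high, at 3.095, 0.89, 2.34 and 1.96 against -1.17, -3.04, -1.39 and -2.46, and AN10371 at 2.94, 4.50, 3.64 and 3.16 against -0.59, -0.06, -0.65 and -0.61. In all 3 the groups did not overlap. Others had no signal well above background under the deletion label. AN1756, at -1.52, -2.56, -1.71 and 0.10 labelled reference, was at least 31.6-fold, 8.12-fold, 64.2-fold and 174-fold higher. AN8308, at -4.75, 1.89, -4.12 and -2.43, was at least 6.04-fold, 177-fold, 13.4-fold and 30.0-fold higher.

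**Figure D3:**
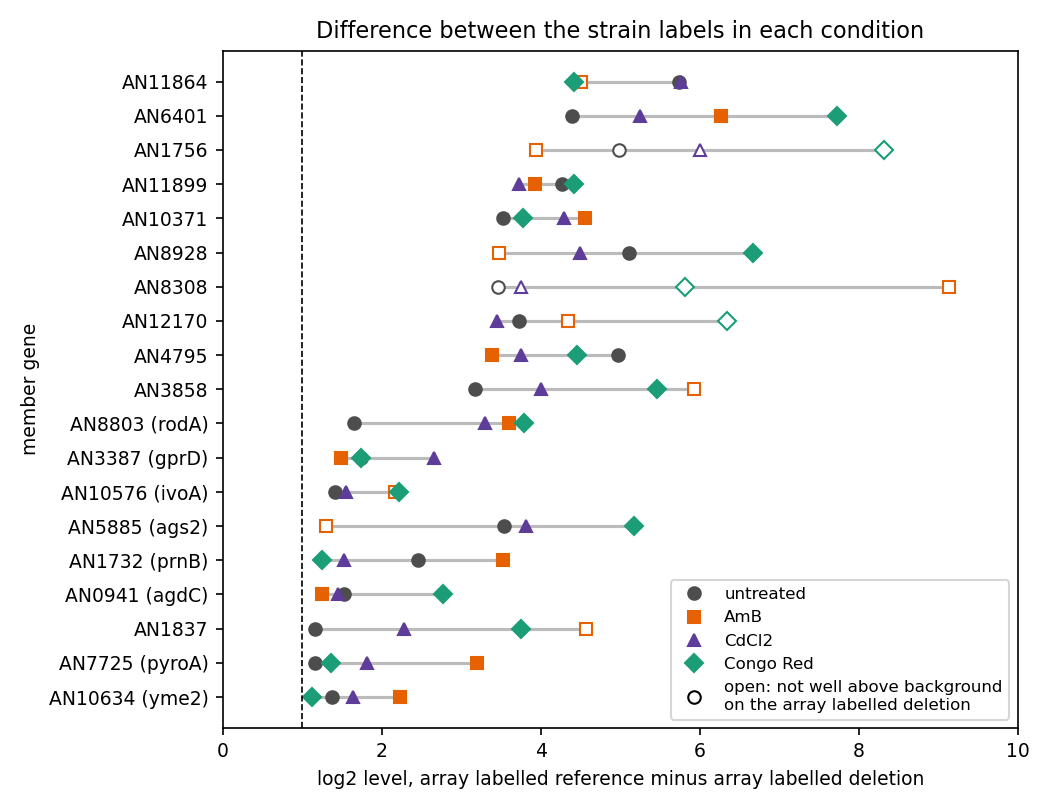
Difference in log2 level between the array labelled reference and the array labelled deletion in each condition, for the 10 genes with the highest smallest difference and the other genes with a symbol or a listed name. The dashed line is the threshold of 1 by which the genes were chosen; open symbols mark values whose array labelled deletion was not well above background, as in all 4 conditions of AN1756 and AN8308.

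The first treatment comparison asked how these genes responded to AmB. More of them rose than fell: in the mean over both strain labels limma called 18 of the 123 higher and 6 lower, 14.6% and 4.88%, where 8.63% and 3.16% of all 8636 tested probes were. All 24 moved the same way under both labels, which the test itself favours, since labels that disagree widen its spread. Their adjusted p-values ran from 0.012 to 0.0485. An unadjusted p under 0.05 was found for 54 of the 123 (43.9%), against 34.2% of all probes. The median response was 0.65 for the chosen genes and -0.01 for all probes tested. The chosen genes had to be well above background on the dim AmB array labelled reference, and the tested probes did not. AmB responses also spread wider labelled reference, where 25.9% of probes rose at least 2-fold and 22.1% fell, than labelled deletion (15.8% and 10.7%). Choice by the difference then favours a higher mean response, so chosen genes and all probes are not like for like. The split of calls moved with the scaling, to 14 higher and 13 lower with quantile normalization (median of all probes -0.27), 77 and 2 with normexp background correction (median 0.69) and 7 and 4 with the value table. Over all 8636 probes these settings called 520 higher and 465 lower, 3541 and 468, and 467 and 461, in that order. Counting both directions, the chosen genes were thus not called more often than all probes with the value table. The test measures departure from additivity between the labels with 2 residual degrees of freedom, not the spread between cultures. Without single arrays the 24 calls became 5 (without the untreated array labelled reference), 45 (without the AmB array labelled reference), 17 (without the untreated array labelled deletion) and 67 (without the AmB array labelled deletion).

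Among the risers, AN7232 had the smallest p-value. It stood at -2.87 untreated and 2.01 under AmB on the arrays labelled reference and at -5.27 and 0.63 on those labelled deletion, a mean response of 5.39 ± 0.36 (SE, adjusted p = 0.012). AN5330 went from -3.81 to 3.91 and from -5.07 to -0.70, a mean of 6.05 ± 0.81 (adjusted p = 0.0237). Both AmB arrays lay above both untreated arrays for each of these genes. AN8095 went from -5.20 to 3.62 labelled reference and from -7.79, below background, to -3.63 labelled deletion, a mean of 6.49 ± 1.11 (adjusted p = 0.0352). Its response was the largest fitted one of the 123 genes, and its size under the deletion label is bounded by the background. AN2574 rose by a mean of 4.91 ± 0.46 and AN2486 by 3.55 ± 0.39, both from untreated levels labelled deletion below background. In the value table AN2574, AN5330 and AN8095 did not pass, with adjusted p-values of 0.0958, 0.0559 and 0.0923.

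Smaller rises followed. AN3974 rose by 2.50 labelled reference and 3.83 labelled deletion (mean 3.17 ± 0.43, adjusted p = 0.0249), and AN8174 by 2.64 and 2.85 (mean 2.74 ± 0.29, adjusted p = 0.0171). The receptor gene gprD rose by 1.94 and 2.18 (mean 2.06 ± 0.39, adjusted p = 0.0414), and yme2 by 2.05 and 1.19 (mean 1.62 ± 0.34, adjusted p = 0.0485). These were the only genes with a symbol among the risers. The others called higher were AN1754, AN9174, AN12400, AN0736, AN5159, AN0338, AN7233, AN8776 and AN3225, with mean responses between 1.55 and 2.31.

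The glucan synthase gene ags2 fell furthest under AmB, by 4.88 labelled reference and 2.63 labelled deletion (mean -3.75 ± 0.69, adjusted p = 0.0394). Its AmB signal labelled deletion was below background, and with normexp background correction the mean was -0.38 (adjusted p = 0.567). AN8928 fell from 0.97 to -3.06 and from -4.14 to -6.52, the last value below background (mean -3.20 ± 0.47, adjusted p = 0.0274), and with normexp its mean was -0.49 (adjusted p = 0.549). The other 4 genes called lower were above background on all 8 arrays. AN11899 fell by 2.21 and 1.87 (mean -2.04 ± 0.30, adjusted p = 0.0283) and AN1941 by 2.74 and 1.60 (mean -2.17 ± 0.42, adjusted p = 0.0415), and AN4372 and AN11760 fell by means of 1.63 and 1.54. The calls of AN11899 and AN1941 were lost without either untreated array, with adjusted p-values of 0.0753 to 0.266 and means of -2.26 and -1.82 for AN11899 and -2.43 and -1.91 for AN1941. The call of AN1941 was also lost with normexp (mean -1.20, adjusted p = 0.0942) and with no slide term (adjusted p = 0.129). The hydrophobin gene AN6401 had a mean of -2.15 ± 0.51 and did not pass (adjusted p = 0.0599), and rodA stood at -0.31 ± 0.55 (adjusted p = 0.709). Among the 70 genes above background on all 8 arrays, 12 were called higher (17.1%) and 4 lower (5.71%), against 6.93% and 3.11% of the 7110 such probes.

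Under the reference label alone, 53 of the 123 genes (43.1%) were at least 2-fold higher under AmB than untreated, where 25.9% of all probes above background on both arrays were. At least 2-fold lower were 20 of them (16.3%, against 22.1%). Under the deletion label, 71 of the genes were above background on both arrays; 23 (32.4%, against 15.8%) were at least 2-fold higher and 9 (12.7%, against 10.7%) at least 2-fold lower. Both labels showed the rise in 17 of these 71 genes, against 11.7% of all probes, and the fall in 6, against 6.66%. These counts compare single arrays and have no test. The levels compared also entered the rule, so the shares of the chosen genes and of all probes are not like for like.

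A group of 14 genes was higher under AmB by at least 4 on the log2 scale on the arrays labelled reference. Their levels there went from between -6.36 and -2.81 untreated to between -1.98 and 3.94 under AmB. How many of all probes rose that far was not counted. For 12 of the 14 genes the difference between the labels was largest under AmB, which the rise by which they were picked itself favours. Responses of the 14 under the deletion label ranged from -0.22 to 5.90. AN0656 is one of them, at -4.99 untreated and 3.44 under AmB labelled reference and -6.31 and -3.69 labelled deletion (mean 5.53 ± 1.41, adjusted p = 0.0672). AN11896 went from -3.65 to 3.94 labelled reference and from -5.08 to -3.66 labelled deletion (mean 4.50 ± 1.51, adjusted p = 0.111). Of the 14, 5 passed the test of the mean response and 5 were above background on both arrays labelled deletion. Whether the response differs between the labels was not tested, since the difference under each condition chose the genes.

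**Figure D4:**
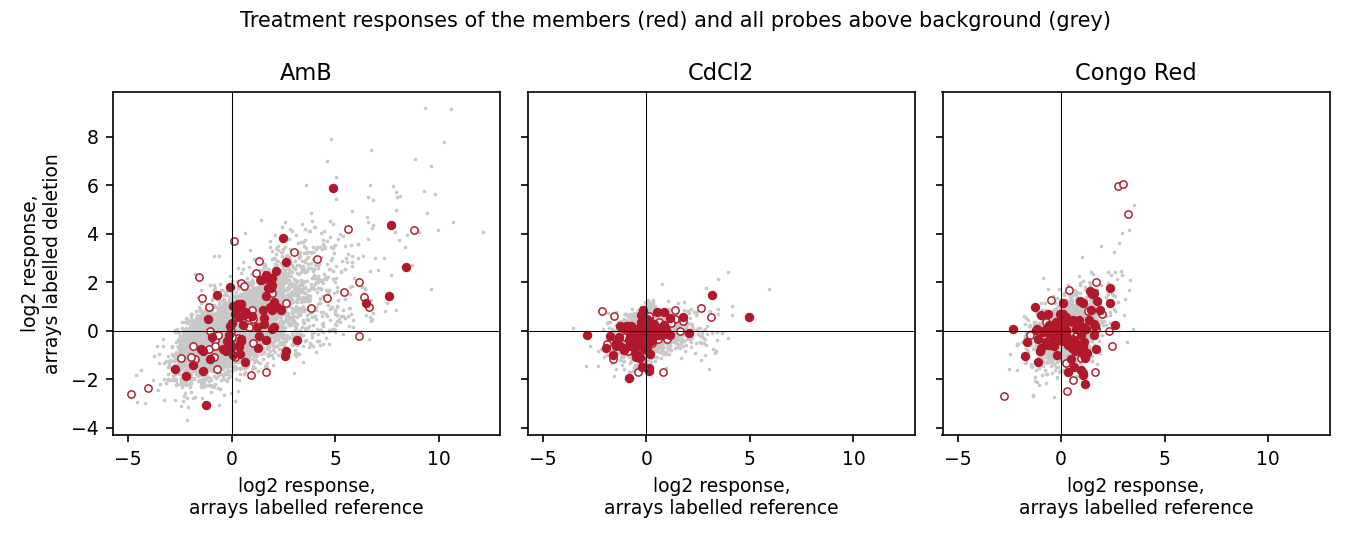
Treatment response (log2 level, treated minus untreated) on the arrays labelled reference (horizontal) and labelled deletion (vertical), for AmB, CdCl2 and Congo Red. Grey points are all probes above background on the 4 arrays; filled red points are genes of the 123 that are too, and open red points those that are not. The red points spread to the right under AmB, with 14 of them at 4 or more on the horizontal axis, and lie closer to 0 under CdCl2. How many of all probes lie that far to the right was not counted.

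Under CdCl2 none of the 123 genes passed limma's test, and neither did any other of the 8636 probes (0%). An unadjusted p under 0.05 was found for 8 of the 123 genes (6.50%) and for 117 of all probes (1.355%). The count of calls was 0 under every alternative run. The median response was -0.16 for the chosen genes and -0.03 for all probes. The highest mean was that of AN0656, at -4.99 untreated and -0.02 under CdCl2 labelled reference and -6.31 and -5.77 labelled deletion (mean 2.76 ± 1.41, adjusted p = 1). AN5330 followed at 2.32 ± 0.81, then AN5453 at 1.84 ± 1.16, AN8095 at 1.79 ± 1.11 and AN11896 at 1.17 ± 1.51. The CdCl2 and AmB responses share the untreated arrays. The lowest means were those of AN0759 at -1.52 ± 0.69, AN1837 at -1.40 ± 0.84, AN6788 at -1.39 ± 0.56, AN5429 at -1.33 ± 0.40 and AN8928 at -1.30 ± 0.47.

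Under the reference label, 15 of the 123 genes (12.2%, against 4.06% of all probes) were at least 2-fold higher under CdCl2 and 17 (13.8%, against 2.1%) at least 2-fold lower. Of the 95 above background on both arrays labelled deletion, 1 (1.05%, against 0.354%) was at least 2-fold higher and 7 (7.37%, against 1.41%) at least 2-fold lower. Both labels showed the rise in 1 of the 95 genes, against 0.129% of all probes, and the fall in 0, against 0.219%. As under AmB, the levels compared also entered the rule, so these shares are not like for like. The untreated and CdCl2 arrays labelled deletion are those whose treatment is exchanged in the value table. With that exchange made, the CdCl2 mean of AN1837 turned to 0.56, and it was 0.15 in the value table itself.

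Under Congo Red none of the 123 genes passed the test (background 0.0232%, 2 of 8636 probes). An unadjusted p under 0.05 was found for 15 of them (12.2%, against 3.02% of all probes), and the smallest adjusted p was 0.145. That was AN8175, at -3.72 untreated and -0.73 under Congo Red on the arrays labelled reference and at -8.71, below background, and -2.66 on those labelled deletion (mean 4.52 ± 0.41). AN11584 had a mean of 4.36 ± 0.86 and AN7902 one of 4.02 ± 0.95, both also from an untreated level labelled deletion below background. AN0736 was above background on all 8 arrays, with responses of 2.37 and 1.77 (mean 2.07 ± 0.32, adjusted p = 0.451), and AN8095 had a mean of 1.86 ± 1.11. The lowest mean was that of AN5429, at -2.75 and -2.72 under the reference and deletion labels (mean -2.73 ± 0.40, adjusted p = 0.451). AN1540 at -1.38 ± 0.33, AN11899 at -1.22 ± 0.30, AN0759 at -1.13 ± 0.69 and AN8890 at -1.10 ± 0.74 came next.

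Labelled reference, 35 of the 123 genes (28.5%, against 5.34% of all probes) were at least 2-fold higher under Congo Red and 12 (9.76%, against 1.41%) at least 2-fold lower. Under the deletion label 9 of 91 (9.89%, against 2.05%) were higher and 11 (12.1%, against 2.15%) lower by that size. Both labels showed the rise in 7 of the 91 genes, against 0.968%, and the fall in 2, against 0.242%. Here too the levels compared entered the rule, so the shares are not like for like. For either label the untreated array and the Congo Red array came from separate slides, in opposite order, so a single-label response and the slide cannot be told apart. With the slide as a term the Congo Red arrays are fitted without residual, and the spread behind these tests comes from the other 6 arrays.

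Many of the genes lay near each other in the numbering. AN numbers run largely along the chromosomes, and 25 of the 123 genes (20.3%) had another of them within 2 AN numbers, while 392 other probes (3.76%) had one. Among the 36 genes at least 4-fold higher in every condition, 3 (8.33%) had one of their own that near. Among the 196 genes that were at least 1 lower labelled reference in every condition, and well above background on all arrays labelled deletion, 52 (26.5%) had one of their own within 2 numbers. The 25 genes formed 10 runs, 6 pairs and 4 runs of 3 or more. The order of genes in RefSeq (assembly ASM1142v1, used for order only) gave the same 10 runs and added AN10573, which lies beside ivoA with 0 genes between. AN10573 was at -3.61, -3.67, -3.48 and -3.25 labelled reference and -4.86, -5.60, -6.51 and -6.56 labelled deletion, the AmB value of which was below background. AN0230, among the 123, lies beside ivoB, and agdC beside AN0940, the listed dewD.

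The longest run was AN7909, AN7911, AN7912 and AN7914. AN7909 stood at -1.93, -2.79, -2.69 and -0.50 labelled reference and -5.29, -6.36 (below background), -5.10 and -4.42 labelled deletion. AN7911 stood at -1.997, -1.66, -2.24 and 0.36 against -5.30, -4.21, -4.93 and -4.14. AN7912 and AN7914 stood at -3.46 to -1.55 and -2.93 to -1.14 labelled reference. All 4 had their highest level of either label under Congo Red or, for AN7914 labelled deletion, under AmB, and no arrays of the groups overlapped in any of them. AN7913, which lies among them, differed by only -0.21, -0.23, 0.17 and 0.19. On the far side AN7915 was lower labelled reference in all 4 conditions, by -1.57 untreated, -1.07 under CdCl2 and -1.09 under Congo Red, and was not well above background labelled reference under AmB.

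The run of AN6786, AN6787 and AN6788 joined genes with unlike profiles. AN6787 was steady, at 1.88, 0.91, 1.03 and 1.37 against -1.97, -2.21, -2.33 and -2.44. AN6786 was high under AmB labelled reference, at 0.29, and at -5.13 to -3.92 on the other arrays of that label. AN6788 was highest under Congo Red, at -1.15, and below background on every array labelled deletion. In the run of AN8609, AN8611 and AN8612, the first was at 3.07, 5.46, 1.80 and 1.83 against -0.56, 0.28, -0.38 and 0.42, and AN8612 also was highest under AmB, at 2.15. AN8611 had its lowest level there, at -4.39. AN8610, between them, differed by 0.93, 2.59, 1.00 and 1.81 and so missed the rule untreated.

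In the fourth run, AN1753 differed by 1.63 to 1.93 and AN1754 by 1.72 to 2.94, while AN1756 was without signal above background labelled deletion. AN1754 rose under AmB (mean 2.31 ± 0.36, adjusted p = 0.0295), and AN1753 had a mean of 0.62 ± 0.28 (adjusted p = 0.185). The flanking AN1752 and AN1757 differed by -0.78 to -0.14 and -0.33 to 0.43, so the differences ended with the run. Both genes of the pair AN7232 and AN7233 rose under AmB, the second by a mean of 1.75 ± 0.32 (adjusted p = 0.0389). In the pair AN8174 and AN8175 the first was called higher under AmB, and the second had the highest Congo Red mean of the 123. AN7724, beside pyroA, was at 0.90, 0.64, 0.97 and 0.83 against -0.55, -1.37, -0.36 and -0.83.

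Some neighbours differed the same way and missed the rule. AN3229, between AN3228 and AN3230, was above background on all 8 arrays and differed by 3.36, 0.34, 2.30 and 5.64, under 1 only under AmB. AN3227, on their near side, had no signal well above background under the deletion label or on the AmB array labelled reference. Of the 237 probes within 2 AN numbers of one of the 123 genes and well above background on the 4 arrays labelled reference, 67 (28.3%) were higher labelled reference in all 4 conditions. Of 7006 other such probes, 1092 (15.6%) were. A difference of at least 1 in 3 or 4 conditions was found for 22 of the 237 (9.28%) and 105 of the 7006 (1.499%). These shares are descriptions, since genes beside each other were not tested as a group.

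**Figure D5:**
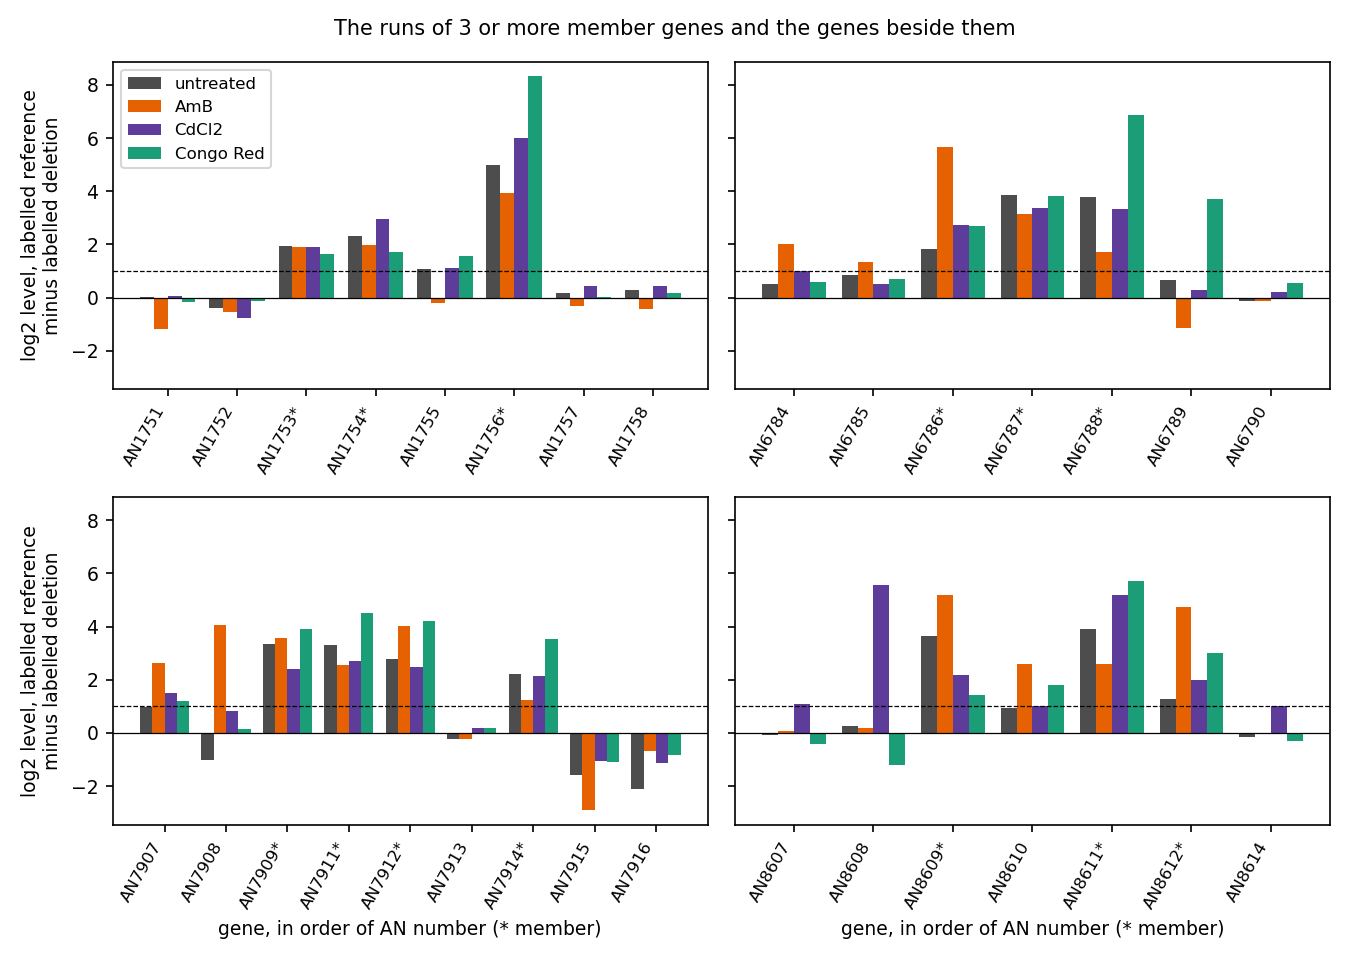
Difference in log2 level between the arrays labelled reference and labelled deletion in each condition, for the 4 runs of 3 or more of the 123 genes (starred) and the genes up to 2 AN numbers beside them. The dashed line is the threshold of 1. The bars of AN7913 stay within 0.23 of 0 inside the longest run, and those of AN7915 fall below 0.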

How the data were processed

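Total RNA of mycelia was measured on 8 single-colour Agilent arrays. The authors deposited scanner files with a background-subtracted processed signal per spot, an intensity on a linear scale per the file headers, for which the submitters' processing notes name Agilent Feature Extraction 12.0.3.1. They also deposited a value table on a log2 scale, made by steps not given in the sources used here. Identifiers were matched to the RefSeq table of assembly ASM1142v1: 9697 of 10550 probes and 113 of the 123 genes matched, and 8 of the 123 had a symbol there. Names called "listed" come from gene lists written for this work.

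The log2 processed signals of the 4 spots of a probe were averaged, flagged spots included, and the array's log2 75th percentile was subtracted. The 8636 probes well above background (on at least 0.5 of their spots) on at least 2 arrays were tested, all 123 genes among them. The test was limma 3.58.1 in R 4.3.3, fitted to slide, treatment and strain label, with Benjamini-Hochberg adjustment over all probes at 0.05, and was tested on simulated data. An at-least fold sets the brighter signal against the higher of the dim signal and the array's lowest signal well above background.

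Genes were named if they had a symbol, were among the 10 with the highest smallest difference, had 1 of the 5 highest or 5 lowest mean responses to a treatment, stood in a run of 3 or more, lay 3 to either side of the threshold, or stood on a list and were chosen or passed a test. Others were named after their values were seen. The genes and lists were chosen with earlier results of these data known. The slide was read from the scanner barcodes. Normexp (offset 50) was run on the median in place of the mean foreground signal. Other alternatives were quantile normalization, the value table, no slide term, other filters, thresholds and neighbourhoods, single arrays or conditions left out, and, chosen after seeing the data, flagged spots left out of the responses and exchanged treatment labels.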

Additional observations from a re-analysis of the deposited data

Results flagged for a closer look

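Some responses moved in opposite directions under the strain labels, by at least 1 on the log2 scale each way, on single arrays, among genes well above background on the 4 arrays concerned. The difference was not tested. For AmB this was AN8479, at 2.58 labelled reference and -1.05 labelled deletion. For Congo Red, where label and slide cannot be told apart, it was AN6401, the listed hydrophobin gene dewC, at 1.14 and -2.19. AN1941 was at 1.07 and -1.82, AN0230, the gene beside ivoB, at 1.07 and -1.75, and AN3858 at 1.16 and -1.13. In each of these genes the array labelled reference was higher in all 4 conditions, by which they were chosen.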

How the results depend on the processing

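The 24 AmB calls were 79 with normexp (77 higher, 2 lower, where the median response of all probes was 0.69), 11 with the value table (7 and 4), 38 with no filter on dim probes, and 5 to 67 without single arrays. Quantile normalization gave 27 calls, 14 higher and 13 lower, with the median of all probes at -0.27, against 18 and 6 as reported. Over all 8636 probes, 4009 were called with normexp, 928 with the value table and 985 with quantile normalization. With no filter 3184 of 10550 probes were called. The chosen genes were thus called about as often as all probes with no filter, and not more often with the value table. The CdCl2 and Congo Red counts were 0 under every alternative run. The number of genes chosen, 123, was 68 with normexp (64 of them shared), 59 in the value table with strain labels turned (58 shared), 220 at 1.5-fold, 36 at 4-fold and 70 when all 8 arrays had to be above background. Under the value table's own labels 96 genes met the rule, of which 0 were shared. Leaving out 1 condition gave 150 to 184. The count of 25 with a neighbour was 3 among the 36 genes at 4-fold. Single genes reversed for CdCl2 in AN11896 (-0.685 to 3.03 without single arrays) and AN5453 (-0.0428 to 3.72), both below 0 without the untreated array labelled reference, and in AN1837 (0.15 with the value table, 0.56 with treatment labels exchanged), and for Congo Red in AN8890 (0.11 with normexp). The causes were not tested, except that stricter thresholds and filters leave fewer genes by construction. Of the other single-gene responses, 330 kept their direction and side of the threshold, 17 lost the call and 11 gained it. No paired analysis was possible because the labels give no replicate numbers to pair, and strain label is itself a term of each fit. The dim AmB arrays limit what can be measured: levels of up to -4.92 labelled deletion were not well above background there.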
